A study of Homo sapiens with 24 samples.

Results

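The baseline transcriptomes of 2 untreated human carcinoma cell lines were compared here, the pancreatic adenocarcinoma line BxPC-3 and the triple-negative breast cancer line HCC-70. The comparison used the 6 control libraries of these lines, 3 for each, out of 24 samples in the series, which was made to study Ocoxin, a nutritional mixture. The libraries were chosen by their titles, in which the letter C marks a control. Every gene of the count table was kept. The labels also give the Ocoxin dilution of the cell line (1:500 for BxPC-3 and 1:700 for HCC-70) to its control samples, so that untreated status rests on the titles. Both lines were grown in RPMI-1640 with 10% serum, and the treatment stage of the study lasted 48 h in medium with 1% serum. RNA was taken from adherent cells and sequenced from stranded mRNA libraries. Each line is 1 established culture from 1 tumour, so a difference between BxPC-3 and HCC-70 cannot be told apart from a difference between pancreatic and breast cancer, and nothing in the labels says that the 3 libraries of a line came from separate cultures. The p-values below measure only the spread between these libraries, which may be technical.

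BxPC-3 is widely used as a pancreatic ductal model and is known for having lost the tumour suppressor genes CDKN2A, which encodes an inhibitor of the G1 cyclin-dependent kinases, and SMAD4, which carries TGF-beta and BMP signals into the nucleus. Triple-negative tumours lack the oestrogen and progesterone receptors and amplified ERBB2, and many of them express the keratins of the basal mammary layer. Both lines are epithelial, so what separates them can lie in lineage factors, in squamous or glandular differentiation, in signalling output, or in single genes that one of them does not express at all.

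The BxPC-3 libraries held 31999019 to 33570493 counts in genes, and the HCC-70 libraries 37601150 to 39009959. Between 24280 and 24660 genes had a count in each BxPC-3 library and between 23795 and 23971 in each HCC-70 library. Across the genes tested, the Pearson correlation of log2 levels was 0.992 to 0.993 among BxPC-3 libraries, 0.994 to 0.995 among HCC-70 libraries and 0.761 to 0.763 between lines, as a description of libraries that share a protocol. Levels are given as CPM, the usual counts per sequencing depth, after TMM scaling, and a difference is the log2 fold change of BxPC-3 minus HCC-70 with its standard error (SE). A gene was called when edgeR's quasi-likelihood test gave an adjusted p under 0.05 over all 18355 genes tested and the fold change was at least 2.

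A total of 8018 genes were called, 43.7% of those tested, with 4064 higher in BxPC-3 (22.1%) and 3954 higher in HCC-70 (21.5%). Without a minimum fold change, 14803 genes (80.6%) passed the adjusted p alone. The median log2 fold change over all genes tested was 0.02, and the median absolute log2 fold change was 0.84. In 7978 of the called genes the 2 groups of libraries did not overlap. A call of at least 2-fold among such similar libraries largely brings this with it, so it is no further support. A difference of 8-fold or more was found for 1731 genes higher in BxPC-3 and 1264 higher in HCC-70. Among protein-coding genes 2989 were higher in BxPC-3 and 2715 in HCC-70, and among lncRNA genes 625 and 851. These shares are the background against which the lists of genes below should be read.

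**Figure D1:**
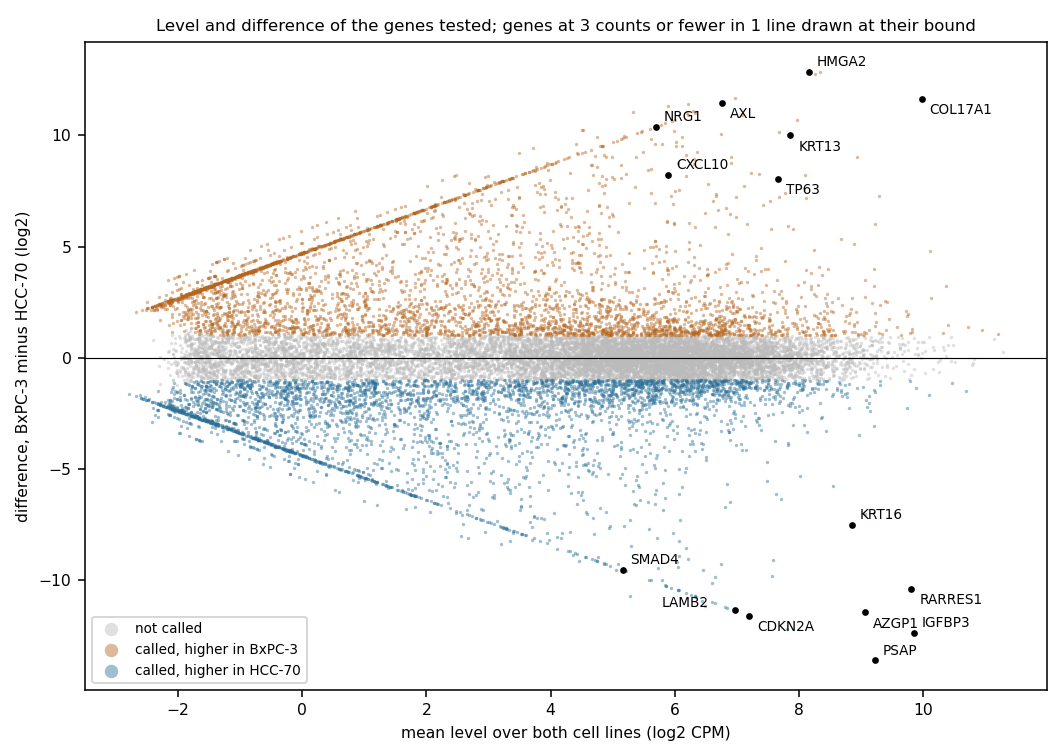
Mean level over both lines (horizontal axis, log2 CPM) against the difference between them (vertical axis, log2, BxPC-3 minus HCC-70) for each gene tested, with called genes coloured by the higher line and genes at 3 counts or fewer in every library of 1 line drawn at the bound those counts allow. The straight upper and lower edges are such genes, and COL17A1, HMGA2, IGFBP3 and PSAP lie farthest out among the labelled genes.

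A large group of genes was on in one line and off in the other, where off means at most 3 counts in every library. Of the called genes, 797 were off in HCC-70, 475 of them protein-coding, and 521 were off in BxPC-3, 304 of them protein-coding. A level of at least 10 CPM in the expressing line was reached by 96 of the 475 and by 68 of the 304. A count of 3 corresponds to 0.0906 to 0.0971 CPM in BxPC-3 libraries and 0.0753 to 0.0779 CPM in HCC-70 libraries. Where the other line had no count at all, folds are given as bounds against 3 counts per library. They cover counting error only. Most fragments gave 2 counts, so that 3 counts stand for fewer fragments than 3.

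HMGA2 was the most abundant protein-coding gene on in BxPC-3 and off in HCC-70. This chromatin architectural protein, normally made in embryonic tissue, lies at chr12:65824131-65966295 on hg38. Its levels were 541, 578 and 592 CPM in BxPC-3 and 0, 0 and 0.0260 CPM in HCC-70, the last being a single count. The receptor tyrosine kinase AXL, at chr19:41219203-41261766, had 223, 221 and 208 CPM in BxPC-3, and 2 counts in 1 HCC-70 library were all that was found there. Its neighbour CYP2S1, a cytochrome P450 enzyme, had 164, 170 and 145 CPM in BxPC-3 and no count in HCC-70, at least 2087-fold higher. NRG1, the neuregulin ligand of the receptor ERBB3, had 98.2, 102 and 111 CPM against no count in HCC-70, at least 1355-fold higher.

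The remaining genes of this group were of several kinds. FLI1, an ETS transcription factor best known in blood and endothelial cells, had 146 to 151 CPM in BxPC-3 and a total of 2 counts in HCC-70. The basement membrane protein nidogen 1 (NID1) had 127 to 132 CPM against 0, at least 1681-fold higher. SLC7A2, a transporter of cationic amino acids, was at least 1436-fold higher, and PGAP4, which modifies glycosylphosphatidylinositol anchors, at least 1618-fold higher. EMB, the immunoglobulin-family protein embigin, had 106 to 123 CPM and 2 counts in 1 HCC-70 library. UGT1A10, an enzyme of glucuronidation, had 245 to 260 CPM against 0, but it shares its last exons with the other genes of its cluster, so its own count is uncertain.

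The corresponding genes of HCC-70 were led by PSAP. This gene encodes prosaposin, the precursor of the saposins that help lysosomal enzymes break down sphingolipids, and almost all cells express it. HCC-70 had 1132, 1162 and 1271 CPM of PSAP, whereas the BxPC-3 libraries had 0, 0.0648 and 0 CPM, that is, 2 counts in 1 library. PLA2G2A, a secreted phospholipase, had 439, 467 and 434 CPM against no count, at least 4753-fold higher in HCC-70. CDKN2A, at chr9:21967753-21995301, had 289, 312 and 278 CPM in HCC-70 and no count in any BxPC-3 library, at least 3120-fold higher, and its neighbour CDKN2B had 233, 238 and 216 CPM against no count, at least 2433-fold higher.

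LAMB2, the laminin beta 2 chain of basement membranes, had 247, 248 and 259 CPM in HCC-70 and no count in BxPC-3, at least 2672-fold higher. CASP14, a caspase of epidermal cornification, had 212, 192 and 268 CPM against 0. TMPRSS2, a serine protease of the cell surface, had 202, 205 and 196 CPM against a single count in 1 BxPC-3 library. PROM1, the stem cell antigen CD133, had 188 to 201 CPM against 0, at least 2058-fold higher. The peroxidase of basement membranes PXDN and the aminopeptidase ANPEP (CD13) had 146 to 178 and 136 to 205 CPM, with 2 counts in 1 BxPC-3 library for PXDN and 2 counts in each of 2 for ANPEP.

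Some of the genes that were off in one line stood side by side on the chromosome. Along the protein-coding genes tested, 29 runs of 2 or more neighbours were off in BxPC-3, with 79 of the 304 genes, and 40 such runs were off in HCC-70, with 92 of the 475. Runs of 4 or more numbered 6 in BxPC-3, with 29 genes, and 2 in HCC-70, with 8 genes. These runs were picked out after their values were seen, and no test was made of them. The run with the most genes spanned 2497 kb at chr9:21329671-23826337 and held KLHL9, MTAP, CDKN2A, CDKN2B, DMRTA1 and ELAVL2. MTAP, the methylthioadenosine phosphorylase of the methionine salvage pathway, had 158, 159 and 161 CPM in HCC-70. None of these 6 genes had a count in a BxPC-3 control library. Toward the short-arm end of the chromosome, HACD4 had 21 counts in the 3 BxPC-3 libraries together against 9235 in HCC-70 (log2 fold change -8.46), while FOCAD, the next gene out, had 2056 against 8643.

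On chromosome 18 the run was ME2, ELAC1, SMAD4 and MEX3C, over 339 kb at chr18:50879049-51218304. SMAD4 had 69.7, 73.0 and 71.3 CPM in HCC-70 and no count in BxPC-3, at least 759-fold higher. ME2, a mitochondrial malic enzyme, summed to 6164 counts in HCC-70 and to 0 in BxPC-3. SKA1, the gene before the run, was not called (log2 fold change -0.54), and DCC, the gene after it, was called in the opposite direction.

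PSAP on chromosome 10 belonged to a run with CDH23, C10orf105 and VSIR, over 454 kb. Beyond it CHST3, a chondroitin sulfotransferase, had 12 counts in the BxPC-3 libraries together against 3604 in HCC-70, ASCC1 had 14 against 4245, and ANAPC16, a subunit of the anaphase-promoting complex, had 2 against 15774. DDIT4, the next gene after ANAPC16, had 4721 counts in BxPC-3 and 5209 in HCC-70 and was not called. On chromosome 21 the run was TMPRSS2, RIPK4, PRDM15, C2CD2 and ZBTB21, over 546 kb, with RIPK4, a kinase of keratinocyte differentiation, at 15633 counts in HCC-70 and 0 in BxPC-3. MX1, directly before that run, was not called (log2 fold change 0.36).

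Over the 19 genes of these 4 runs the BxPC-3 control libraries held 5 counts in all and the HCC-70 control libraries 333304. The Ocoxin-treated BxPC-3 libraries also held 5. In the colorectal line SW620, whose control libraries are in the same table, 17 of these 19 genes had more than 3 counts in every library. RNA counts do not show whether DNA was present, and copy number was not measured in the files used here. Neighbours that were off in HCC-70 included GIMAP8, GIMAP7, GIMAP4 and GIMAP6 on chromosome 7, ABCA8, ABCA9, ABCA6 and ABCA10 on chromosome 17, the trefoil factors TFF3, TFF2 and TFF1 on chromosome 21, and CYP2B6, CYP2S1 and AXL on chromosome 19. HNRNPUL1, which follows AXL, had 51868 counts in BxPC-3 and 59362 in HCC-70. Of the other runs off in BxPC-3, both of the 5-gene runs on chromosome 19 were of zinc finger genes, from ZNF471 to PEG3 and from ZNF418 to ZSCAN18.

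**Figure D2:**
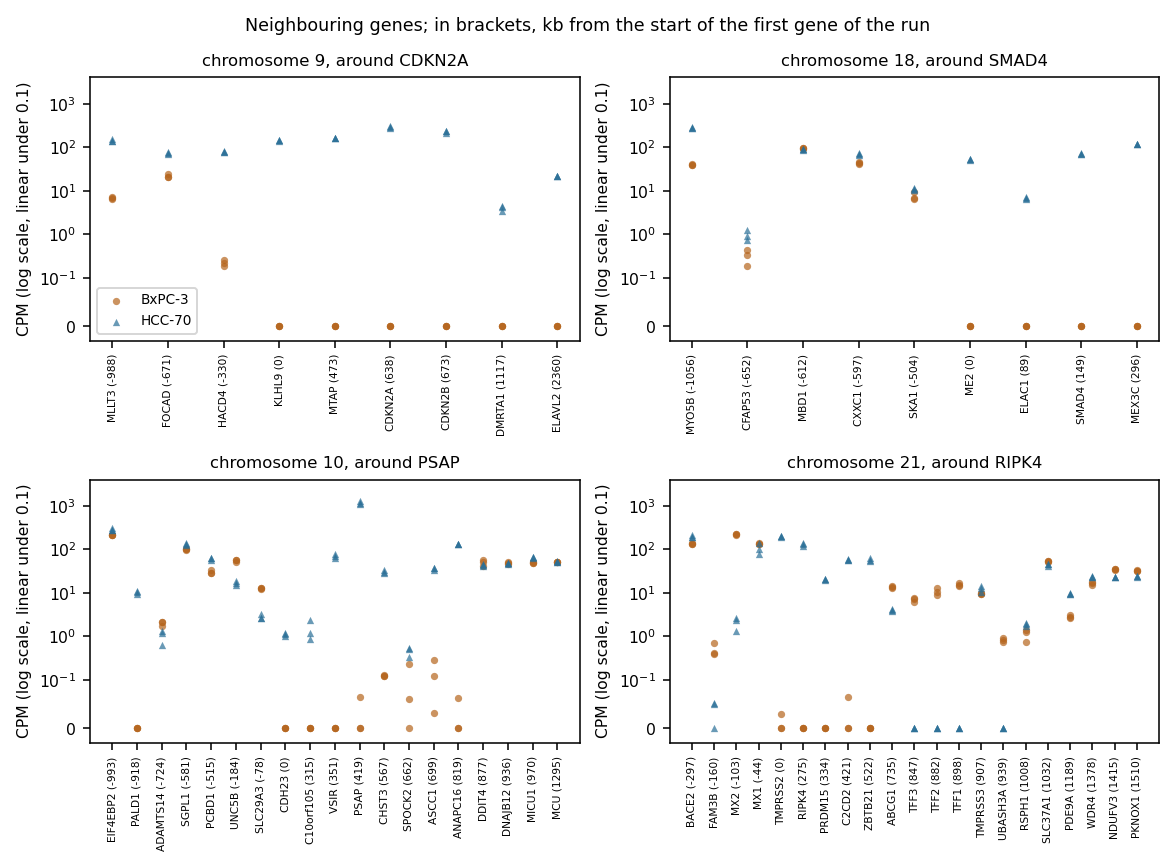
Level of neighbouring protein-coding genes in each library (vertical axis, CPM, log scale that is linear under 0.1) in chromosome order around CDKN2A, SMAD4, PSAP and RIPK4, with circles for the 3 BxPC-3 libraries and triangles for the 3 HCC-70 libraries. Over the runs from KLHL9 to ELAVL2, ME2 to MEX3C, CDH23 to PSAP and TMPRSS2 to ZBTB21 the circles lie at or near 0 while the triangles do not.

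Among genes with more than 3 counts in all 6 libraries, COL17A1 differed most toward BxPC-3. It encodes collagen XVII, the transmembrane collagen of hemidesmosomes, and lies at chr10:104031286-104086002. Its levels were 1934, 2121 and 1973 CPM in BxPC-3 and 0.603, 0.736 and 0.519 CPM in HCC-70, a log2 fold change of 11.65 (SE 0.10, adjusted p = 4.68e-18). DUOX2, an oxidase that makes hydrogen peroxide at epithelial surfaces, had 473, 529 and 503 CPM against 0.176, 0.406 and 0.312 CPM, a log2 fold change of 10.70. The peptidylarginine deiminase PADI3 and the keratin KRT13, both proteins of stratified epithelia, differed by 10.15 and 10.00 on the same scale.

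The other genes chosen by this rule were of several kinds. GPX2, the gastrointestinal glutathione peroxidase, had 195 to 230 CPM in BxPC-3 and 0.156 to 0.228 CPM in HCC-70 (log2 fold change 10.07), and the aldehyde dehydrogenase ALDH3A1 had 901 to 1076 against 1.53 to 2.13 CPM (9.03). MEST, an imprinted gene, differed by 9.54, and IL1RL1, the receptor of interleukin 33, by 9.50. Thrombomodulin (THBD), an anticoagulant receptor of the cell surface, differed by 9.03.

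Toward HCC-70 the largest difference was that of IGFBP3, the main carrier of insulin-like growth factors, at chr7:45912245-45921874. It had 1868, 1931 and 1727 CPM in HCC-70 and 0.439, 0.324 and 0.242 CPM in BxPC-3, a log2 fold change of -12.41 (SE 0.11, adjusted p = 4.68e-18). The secreted glycoprotein AZGP1 had 1025, 1055 and 1125 against 0.439, 0.453 and 0.242 CPM (-11.46), and RARRES1, a gene induced by retinoids, 1777, 1653 and 1943 against 1.32, 1.59 and 1.09 CPM (-10.40). VTCN1, the inhibitory B7-H4 protein of the cell surface, had 381, 371 and 382 against 0.565, 0.194 and 0.483 CPM (-9.81).

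RUNX3, a transcription factor of the runt family, differed by -9.47, the adhesion receptor ADGRL2 by -9.43, the exchange factor DOCK8 by -9.31, the matrix protein SPON1 by -9.20 and matrix Gla protein (MGP) by -9.11. In the stretch of chromosome 6 that holds the antigen presentation cluster, with its first gene starting at 28503296 and its last ending at 33457548, 64 of 178 protein-coding genes (36.0%) held at most 3 counts in all 6 libraries, against 164 of 849 (19.3%) on the rest of that chromosome, and IER3 in that stretch had no count in any library. Counts of genes in that stretch are therefore uncertain in these files. No direction is drawn from single genes there, although the counts of the antigen presentation list below include many of them.

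The lineage genes of the gut tube were next examined. Of 24 genes of pancreas and foregut, 17 could be tested, of which 11 were higher in BxPC-3 and 6 in HCC-70, with a median log2 fold change of 2.59. FOXA2, a pioneer factor of the endoderm, had 26.3, 24.8 and 24.3 CPM in BxPC-3 and no count in HCC-70, at least 329-fold higher. The pancreatic factor PDX1 had 2.01, 0.842 and 1.15 CPM against no count, CDX2 2.81 to 3.39 CPM against no count, and GATA4 0.777 to 0.846 CPM against no count, so that their expression in BxPC-3 was low. GATA6, which marks the classical subtype of pancreatic cancer, had 38.9, 41.2 and 39.5 CPM against 8.31, 9.01 and 8.39 CPM, a log2 fold change of 2.22 (SE 0.08).

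Several ductal genes went the other way or were missing. SOX9, a factor of ductal and progenitor cells, was higher in HCC-70 with 167, 152 and 162 CPM against 20.02, 25.6 and 24.7 CPM (log2 fold change -2.78). The carbonic anhydrases CA2 and CA9 (-2.06 and -5.66) and MUC1 (-1.74) were also higher in HCC-70. PTF1A, a factor of acinar cells, had no count in any of the 6 libraries, and CFTR did not reach 0.4 CPM in any of them.

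For pancreatic ductal adenocarcinoma (PDAC), members of both subtype lists were higher in BxPC-3. Among the classical genes, 11 of 17 tested were higher in BxPC-3 and 3 in HCC-70 (median 1.86), with CTSE, ANXA10, TFF1, TFF2 and TFF3 at 6.25 CPM or more in BxPC-3 and at most 0.1004 CPM in HCC-70. AGR2, a disulfide isomerase of secretory cells, had 445 to 488 against 246 to 273 CPM and missed the 2-fold limit. Among the basal-like genes, 16 of 24 tested were higher in BxPC-3 and 5 in HCC-70 (median 2.39). S100A2, a calcium-binding protein of squamous cells, had 647, 621 and 574 CPM against 49.7, 52.97 and 38.5 CPM (log2 fold change 3.71), SPRR1B, a precursor of the cornified envelope, 47.9 to 56.3 against 0.0502 to 0.178 CPM (9.08), and LY6D 106 to 146 against 0 to 0.208 CPM (10.22). VGLL1, UCA1 and LEMD1 of the same list were higher in HCC-70, by -3.16, -2.52 and -3.53.

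Genes of breast lineage were mostly, but not always, higher in HCC-70. Of 15 hormone receptor and luminal genes tested, 8 were higher in HCC-70 and 3 in BxPC-3, with a median log2 fold change of -1.03. ESR1, the oestrogen receptor, was low in both lines with 7.31, 5.33 and 7.25 CPM in HCC-70 and 1.00, 0.453 and 0.967 CPM in BxPC-3 (-3.02), and the progesterone receptor PGR had no count in any library. GATA3, the master factor of luminal mammary cells, had 81.5, 87.9 and 87.4 CPM against 12.6, 12.3 and 10.8 CPM (-2.85). PRLR, the prolactin receptor, had 118.2, 105.4 and 143.6 CPM against no count, at least 1303-fold higher. ERBB2 had 235, 251 and 234 CPM against 128, 134 and 117 CPM, a log2 fold change of -0.92 that was under the 2-fold limit, and FOXA1 overlapped between the lines (79.1 to 91.7 and 81.2 to 82.5 CPM). The members of this list higher in BxPC-3 were TFF1 and TFF3, which the classical list shares, and SPDEF (5.94).

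Mammary tissue genes were sparse. Of 13 listed, 6 could be tested, and 4 were higher in HCC-70, among them TRPS1, with 132, 126 and 129 CPM against 34.3, 37.0 and 37.6 CPM (log2 fold change -1.83), and TBX3, with 1.86 to 2.39 CPM against no count. EHF, an epithelial ETS factor, was higher in BxPC-3 (1.29). The mammaglobin gene SCGB2A2 had no count in any library.

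The basal and myoepithelial breast list was divided, with 6 of 13 tested genes higher in HCC-70 and 4 in BxPC-3. KIT had 60.9, 61.2 and 60.0 CPM in HCC-70 against 0.251, 0.259 and 0.363 CPM (-7.68), and ID4 had 44.5 to 50.6 CPM against 2 counts in 1 BxPC-3 library. TP63, the master factor of stratified and basal epithelium, was in contrast far higher in BxPC-3, with 387, 410 and 411 CPM against 1.46, 1.37 and 1.74 CPM, a log2 fold change of 8.04 (SE 0.09, adjusted p = 1.47e-17). EGFR was abundant in both lines (562 to 641 and 454 to 522 CPM) and CDH3 overlapped between them (536 to 616 and 575 to 606 CPM). SOX10 and CNN1 had no count in any library.

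Keratins were abundant in both lines, some at similar levels and others far higher in one line. Of the 8 basal keratins tested, KRT5, KRT6A and KRT17 were higher in BxPC-3 and 5 were higher in HCC-70. KRT16 had 945, 985 and 833 CPM in HCC-70 against 5.46, 4.79 and 4.62 CPM in BxPC-3 (log2 fold change -7.54), and KRT6B 388, 358 and 302 against 7.44, 7.58 and 7.58 CPM (-5.53). KRT6A was reversed, with 1176, 1216 and 1125 CPM in BxPC-3 against 18.4, 15.6 and 19.8 CPM (6.03), although KRT6A and KRT6B are near-identical and reads can be split between them. KRT17, with 2482, 2518 and 2173 against 273, 266 and 220 CPM (3.24), and KRT5, with 3380, 3240 and 2966 against 1607, 1614 and 1421 CPM (1.05), were abundant in both lines, and KRT5 was under the 2-fold limit without the third HCC-70 library (0.98). KRT14 was 4.03-fold higher in HCC-70. Of the 6 keratins of simple epithelia tested, KRT18 alone was called (1.31), and KRT8 and KRT19 overlapped between the lines. Over all 23 keratin genes tested, 5 were higher in BxPC-3 and 10 in HCC-70.

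**Figure D3:**
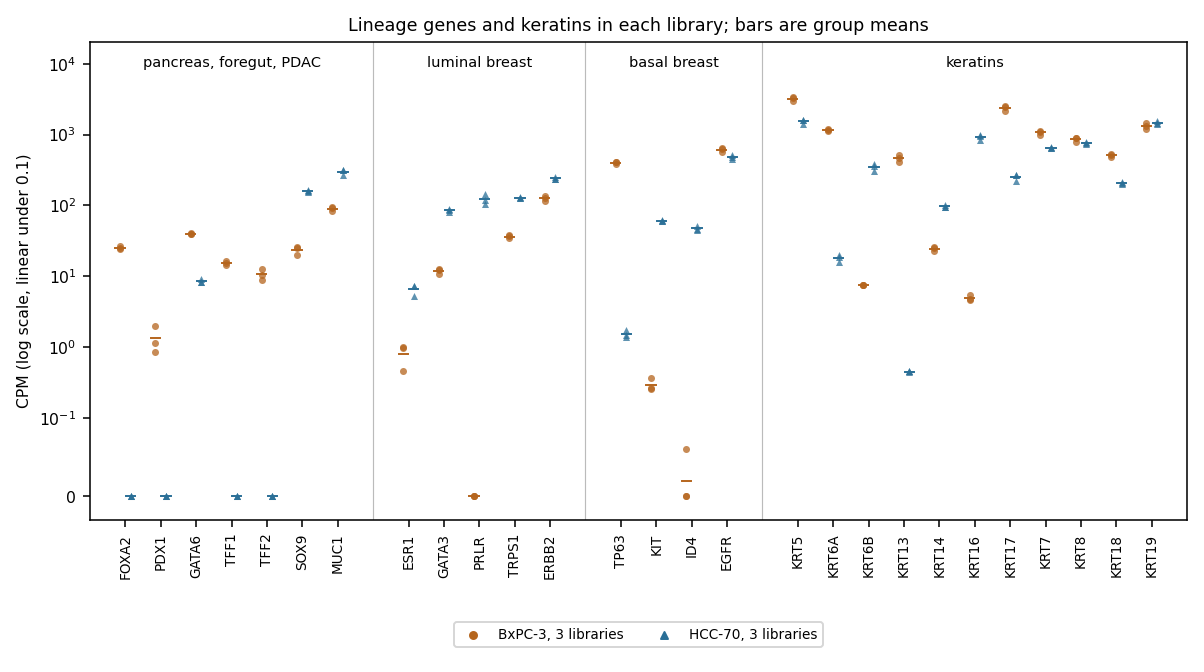
Level of lineage genes and keratins in each library (vertical axis, CPM, log scale that is linear under 0.1), with circles for BxPC-3, triangles for HCC-70 and short bars for group means. FOXA2, TFF1 and TFF2 had no count in HCC-70 and PRLR had none in BxPC-3, TP63 and KIT lay far apart in opposite directions, and KRT16 and KRT6A differed in opposite directions as well.

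Of 19 mucins and CEACAMs listed, 5 were too low to test. The 14 tested were all called, 9 higher in BxPC-3 and 5 in HCC-70, against 43.7% called over all genes tested. Members on in 1 line alone passed the filter through that line. MUC2, the gel-forming mucin of the intestine, had 54.4, 87.0 and 73.9 CPM in BxPC-3 and no count in HCC-70, at least 939-fold higher, and MUC5AC, that of the stomach, 3.76 to 4.29 CPM against no count. CEACAM5, the carcinoembryonic antigen, had 519, 577 and 545 CPM against 2.21, 2.11 and 1.14 CPM (log2 fold change 8.23). The transmembrane mucins MUC1 and MUC16 were higher in HCC-70 (-1.74 and -1.72).

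HOX genes, which record position along the body axis, differed in both directions. Of 26 tested, 8 were higher in BxPC-3 and 11 in HCC-70 (median -0.86). HOXC12 had 58.6, 62.3 and 56.2 CPM in HCC-70 and no count in BxPC-3, at least 628-fold higher, and HOXC10 had 55.8 to 61.6 against 4.18 to 6.37 CPM (-3.45). HOXB13 and HOXA13, the last genes of their clusters, were on only in BxPC-3 at 2.78 to 4.01 and 3.89 to 5.57 CPM, apart from 2 counts of HOXA13 in 1 HCC-70 library.

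Output genes of the ERK pathway were higher in BxPC-3. When ERK is active, cells transcribe its own inhibitors, the dual-specificity phosphatases and Sprouty proteins, together with ETS and AP-1 factors. Of 18 such genes tested, 14 were higher in BxPC-3, none was called higher in HCC-70, and the median log2 fold change was 2.27 against 0.02 over all genes tested. DUSP6, the phosphatase of ERK, had 191, 203 and 209 CPM against 0.979, 1.497 and 1.376 CPM, a log2 fold change of 7.29 (SE 0.10, adjusted p = 1.50e-16). DUSP4 had 359, 383 and 363 against 2.66, 2.13 and 3.53 CPM (7.05).

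SPRY4, ETV1 and FOSL1 followed with 4.41, 4.06 and 3.86, and PHLDA1 and EPHA2 with 2.98 and 1.36. The 4 genes not called were SPRY2, SPRED2, EPHA4 and CCND1. EPHA4 had a negative value among them (-0.68), and CCND1 had 230 to 236 CPM in BxPC-3 and 143 to 157 in HCC-70.

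Ligands of the ERBB receptors were called in both directions, whereas no receptor tested was called. EGFR, ERBB2 and ERBB3 differed by less than 2-fold, with values of 0.33, -0.92 and -0.87. Among the ligands, EREG had 52.4, 56.1 and 62.2 CPM in BxPC-3 against 2.36, 2.46 and 2.23 CPM (4.59), HBEGF 113, 112 and 109 against 7.68, 7.31 and 6.62 CPM (3.95), AREG differed by 2.27 and TGFA by 1.23, and NRG1 was off in HCC-70. EGF and EPGN were higher in HCC-70, with EGF at 20.1, 21.5 and 16.2 CPM against 0.439, 0.194 and 0.363 CPM (-5.84). The ligands BTC and NRG4 were not called (0.45 and 0.22). In all, 5 of 12 tested were higher in BxPC-3 and 2 in HCC-70.

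The PI3K list held 21 tested genes, of which 6 were higher in BxPC-3 and 4 in HCC-70, shares close to the background. The regulatory subunit PIK3R3 was higher in HCC-70 with 419, 428 and 419 against 28.1, 29.4 and 30.4 CPM (-3.85), as were PIK3CB, PIK3CD and PIK3R1. The insulin receptor substrates IRS1 and IRS2 and the receptor IGF1R were higher in BxPC-3 (1.94, 3.88 and 2.35).

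NF-kB targets and cytokines had the highest share of genes called toward BxPC-3 among the lists with 10 or more genes tested. NF-kB is the transcription factor through which interleukin 1 and TNF induce chemokines, acute-phase proteins and its own inhibitors. Of 34 tested, 29 were higher in BxPC-3 and 4 in HCC-70, with a median log2 fold change of 2.35. IL1A had 99.7, 111 and 121 CPM against 0.1004, 0.0507 and 0.260 CPM (9.63), and IL1B 59.5, 63.1 and 67.0 against 0.0502, 0.0507 and 0.260 CPM (9.01). The chemokine CCL20 had 35.3, 28.9 and 30.8 against 0.251, 0.0507 and 0.0519 CPM (8.02).

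CXCL8, the neutrophil chemokine interleukin 8, had 100, 111 and 120 against 7.43, 7.76 and 5.35 CPM (4.01). The inhibitor TNFAIP3 (A20) differed by 4.54, the adhesion molecule ICAM1 by 2.90, the cyclooxygenase PTGS2 by 3.52, lipocalin 2 (LCN2) by 2.38 and complement C3 by 2.09. CSF3, the granulocyte growth factor, had 10.5 to 14.2 CPM against no count, at least 160-fold higher. CXCL1, CXCL2 and CXCL3 were all higher in BxPC-3, but their sequences are close enough that reads can be shared. CCL2, CCL28, CXCL16 and TNFSF10, which encodes the death ligand TRAIL, were higher in HCC-70, the last with 591, 594 and 606 against 238, 203 and 207 CPM (-1.47). PTGES overlapped between the lines.

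Interferon-stimulated genes, which encode antiviral proteins, were also higher in BxPC-3 in most cases. Of 33 tested, 26 were higher in BxPC-3 and 1 in HCC-70, with a median of 1.53. CXCL10, a T cell chemokine, had 120, 115 and 121 CPM against 0.301, 0.457 and 0.416 CPM, a log2 fold change of 8.23 (SE 0.10), and CXCL11 differed by 6.88. MX2 had 218, 229 and 225 against 2.61, 1.32 and 2.39 CPM (6.73), while its neighbour MX1 had 133, 141 and 134 against 100, 78.5 and 140 CPM and overlapped. IFIT1, which binds viral RNA, had 319, 323 and 337 against 53.6, 44.6 and 73.6 CPM (2.51). IRF7 was the member higher in HCC-70, with 2.16 to 2.31 CPM against 2 counts in 1 BxPC-3 library.

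The third HCC-70 library was the highest of its group for 25 of the 33 genes (75.8%), against 35.4% of all genes tested. IFI6 is an example, with 155, 182 and 392 CPM in HCC-70 against 720, 753 and 619 CPM in BxPC-3 (log2 fold change 1.52, edgeR adjusted p = 0.0244). The call of IFI6 was lost when any 1 of the other 5 libraries was left out, with edgeR adjusted p-values of 0.0549 to 0.0745. The list had 27 called genes with the third HCC-70 library and 27 without it, and the median was 1.68 without it.

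**Figure D4:**
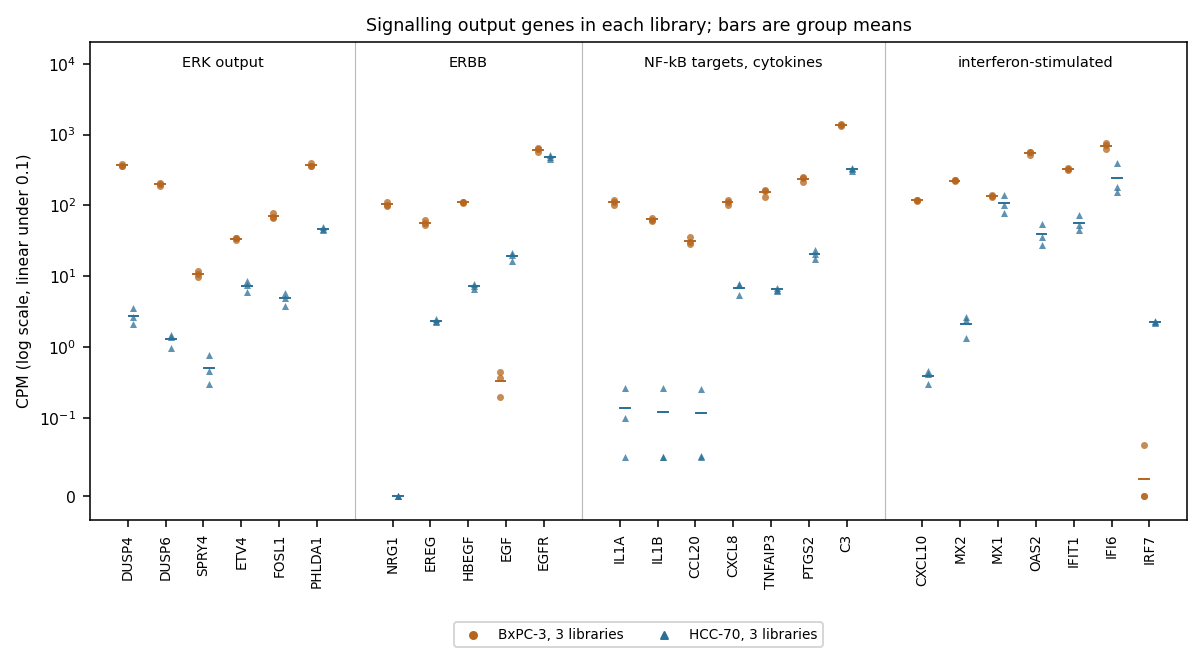
Level of ERK output, ERBB, NF-kB and interferon-stimulated genes in each library (vertical axis, CPM, log scale that is linear under 0.1), with circles for BxPC-3, triangles for HCC-70 and short bars for group means. Apart from EGF and IRF7, each gene has the BxPC-3 mean above the HCC-70 mean, and MX1 is the gene whose libraries overlap.

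The RefSeq promoters of these genes (GRCh38.p14, from 250 bases before to 50 bases after the start site) were read for the letters that the factors of each group are known to bind. Most members of each list were called toward BxPC-3, which is why these sequences are shown. For interferon the letters were those of the core of the interferon-stimulated response element (GAAA, any 2 bases and GAAA again), for AP-1 they were TGANTCA, and for NF-kB its consensus site by name, all on both strands. Matches of the interferon and NF-kB letters overlapped in 2 of 35116 windows, and the other pairs in 0. The interferon letters were found for 17 of 24 matched genes of the interferon list (70.8%), against 4.04% of the protein-coding genes tested and 4.38% of all 27305 genes with a promoter. The NF-kB site was found for 13 of 25 genes of the NF-kB list (52.0%), against 9.08% and 7.09%. It was also found for 9 of 24 genes of the interferon list (37.5%), so it was not particular to the NF-kB list. The interferon letters were found for 2 of 25 genes of the NF-kB list (8%). The AP-1 letters were found for 5 of 14 genes of the basal-like PDAC list (35.7%), against 7.63% and 9.37%. The same letters were found for 2 of 12 genes of the ERK output list (16.7%) and 5 of 25 of the NF-kB list (20%). The interferon and NF-kB lists had been assembled from genes known to respond to these factors, and the basal-like list from a tumour subtype. The shares describe the lists and say nothing about binding in these cells.

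For each site the promoters of a pair of genes higher in BxPC-3 are printed 5′ to 3′ on the strand of the gene, with the matched letters in capitals. CXCL10 (chr4:76023448-76023747, minus strand) and IFIT1 (chr10:89392373-89392672, plus strand) carry the interferon letters, CCL20 (chr2:227813592-227813891, plus strand) and TNFAIP3 (chr6:137867009-137867308, plus strand) the NF-kB site, and SPRR1B (chr1:153030953-153031252, plus strand) and S100A2 (chr1:153565795-153566094, minus strand) the AP-1 letters.
CXCL10: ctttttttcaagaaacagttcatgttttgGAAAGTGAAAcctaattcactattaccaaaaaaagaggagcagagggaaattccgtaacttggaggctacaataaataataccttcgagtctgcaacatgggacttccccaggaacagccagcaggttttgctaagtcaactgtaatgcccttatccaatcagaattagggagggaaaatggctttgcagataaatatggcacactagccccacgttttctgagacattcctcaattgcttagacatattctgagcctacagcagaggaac
IFIT1: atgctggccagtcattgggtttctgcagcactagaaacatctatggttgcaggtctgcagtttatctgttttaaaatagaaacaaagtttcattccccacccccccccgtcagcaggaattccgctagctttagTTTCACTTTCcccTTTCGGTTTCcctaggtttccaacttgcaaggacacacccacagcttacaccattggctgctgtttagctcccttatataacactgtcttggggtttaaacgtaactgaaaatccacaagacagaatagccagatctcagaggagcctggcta
CCL20: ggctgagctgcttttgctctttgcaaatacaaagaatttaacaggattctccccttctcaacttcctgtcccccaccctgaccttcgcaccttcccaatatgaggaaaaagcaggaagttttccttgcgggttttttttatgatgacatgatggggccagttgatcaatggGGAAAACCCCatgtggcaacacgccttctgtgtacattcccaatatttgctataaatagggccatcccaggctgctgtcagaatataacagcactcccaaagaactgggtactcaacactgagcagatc
TNFAIP3: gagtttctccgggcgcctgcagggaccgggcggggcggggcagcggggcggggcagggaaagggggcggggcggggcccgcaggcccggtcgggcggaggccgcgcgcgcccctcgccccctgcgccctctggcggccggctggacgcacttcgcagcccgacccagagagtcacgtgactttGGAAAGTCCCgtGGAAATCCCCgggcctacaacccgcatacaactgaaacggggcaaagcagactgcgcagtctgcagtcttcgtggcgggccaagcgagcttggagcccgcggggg
SPRR1B: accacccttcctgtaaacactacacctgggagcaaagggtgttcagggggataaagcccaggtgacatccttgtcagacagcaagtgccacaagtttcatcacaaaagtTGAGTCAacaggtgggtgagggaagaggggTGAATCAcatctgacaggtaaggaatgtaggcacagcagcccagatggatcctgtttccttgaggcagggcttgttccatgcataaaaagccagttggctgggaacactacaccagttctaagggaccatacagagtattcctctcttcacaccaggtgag
S100A2: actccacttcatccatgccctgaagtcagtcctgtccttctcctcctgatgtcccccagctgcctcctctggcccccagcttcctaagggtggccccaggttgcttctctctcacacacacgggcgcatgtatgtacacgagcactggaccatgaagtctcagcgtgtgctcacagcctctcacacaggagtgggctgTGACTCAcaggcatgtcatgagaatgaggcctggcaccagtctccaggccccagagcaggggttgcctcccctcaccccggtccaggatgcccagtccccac

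The capitals begin 221 bases before the start site in CXCL10 and 116 bases before it in IFIT1, where 2 matches stand close together. They begin at -79 in CCL20, at -67 in TNFAIP3, at -141 in SPRR1B and at -52 in S100A2. TNFAIP3 and SPRR1B also have 2 matches each. A further description concerned CpG content. A promoter was counted as CpG-rich when the observed to expected CpG ratio was over 0.6. This held for 84.6% of the protein-coding genes tested that had a promoter, for 91.0% of those not called, for 51.1% of those on in BxPC-3 and off in HCC-70, and for 63.4% of those on in HCC-70 and off in BxPC-3. It held for 71.3% of all those called higher in BxPC-3 and for 77.5% of all those called higher in HCC-70. Over all 27305 genes with a promoter, tested or not, the share was 51.9%, close to that of the genes off in HCC-70.

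Antigen presentation genes included 12 of 21 higher in HCC-70 and 3 in BxPC-3, but many members lie in the uncertain stretch of chromosome 6. Outside it, CIITA, the master regulator of HLA class II genes, had 10.4, 9.34 and 13.6 CPM in HCC-70 against 1.00, 0.906 and 1.09 CPM (-3.46), and NLRC5, that of class I genes, differed by -1.05. CD74, the class II invariant chain, had 124, 133 and 226 CPM against 10.9, 12.5 and 9.97 CPM (-3.85), again with the third HCC-70 library the highest. B2M was not called, with 1208 to 1313 against 763 to 837 CPM.

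In the TGF-beta and BMP list 13 of 32 tested genes were higher in BxPC-3 (40.6%) and 7 in HCC-70 (21.9%). Over all genes tested these shares were 22.1% and 21.5%, so the HCC-70 share lay near the background. The ligand TGFB1 had 179, 189 and 149 CPM against 10.95, 9.06 and 13.04 CPM (3.97), the receptor TGFBR2 328, 329 and 331 against 60.8, 57.7 and 62.6 CPM (2.45), and the ligand BMP2 41.8 to 44.3 against 0.552 to 0.831 CPM (5.88), all higher in BxPC-3. SMAD3 had 562, 616 and 609 against 148, 145 and 120 CPM (2.12), while SMAD7 overlapped. ID2 and ID3, known targets of BMP signalling, were higher in HCC-70 (-5.67 and -4.10), whereas ID1 was not called. INHBB, an activin subunit, had 135, 141 and 121 CPM in HCC-70 against 2 counts in each of 2 BxPC-3 libraries.

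Laminins and integrins formed a second matrix difference. Of 28 tested, 16 were higher in BxPC-3 and 4 in HCC-70, with a median of 1.35. Integrin alpha 6 (ITGA6) and beta 4 (ITGB4), the receptor pair of hemidesmosomes together with COL17A1, had 1047, 1116 and 1165 against 70.1, 64.5 and 75.1 CPM (3.99) and 554, 632 and 555 against 122, 110 and 115 CPM (2.33). Of the chains of the laminin that anchors hemidesmosomes, LAMA3 (1.46) was higher in BxPC-3 and LAMB3 overlapped. LAMB1 (3.24) was higher in BxPC-3, the line in which LAMB2 was off.

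Epithelial genes leaned the other way, with 8 of 20 junction and epithelial genes higher in HCC-70, 1 in BxPC-3 and a median of -0.38. The transcription factor GRHL1 had 106.9, 105.1 and 112.9 CPM in HCC-70 against 9.288, 9.777 and 9.001 CPM (-3.53), and occludin (OCLN) 24.3 to 25.9 against 3.87 to 4.74 CPM (-2.56). E-cadherin (CDH1) had 747 to 802 against 547 to 605 CPM and EPCAM 180 to 198 against 119 to 133 CPM, neither called. Of 12 claudins, 6 were higher in HCC-70, including CLDN3 and CLDN8 (-4.99 and -2.90), and 3 in BxPC-3, including CLDN10, with 10.3 to 12.1 CPM against 2, 3 and 3 counts.

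Mesenchymal genes were split, with 6 of 15 tested higher in BxPC-3 and 3 in HCC-70. Vimentin (VIM) had 40.5, 35.4 and 44.6 CPM in HCC-70 against 3.99, 4.99 and 3.47 CPM (-3.28), and tenascin C (TNC) 101, 86.0 and 107 CPM against no count, at least 1041-fold higher. The cadherins CDH2 and CDH11 were on in BxPC-3 alone, at 6.34 to 7.94 and 31.4 to 36.1 CPM, and SNAI2 was higher there (1.83) while SNAI1 was higher in HCC-70 (-3.23). ZEB1 and TWIST1 stayed under 0.4 CPM in every library.

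The G1 list held 23 tested genes, 9 higher in HCC-70 and 3 in BxPC-3. Besides CDKN2A and CDKN2B, the inhibitor CDKN2C (p18) had 153, 164 and 125 CPM in HCC-70 against 13.7, 15.1 and 12.8 CPM (-3.41). E2F2 (-2.74), E2F1 (-1.04) and CCNE2 (-1.84), genes of the S phase programme, were higher in HCC-70 as well. CDKN1A (p21) had 159, 167 and 142 CPM in BxPC-3 against 47.9, 47.3 and 44.4 CPM (1.74), and CDK6 and RB1 were called with values close to the limit (1.01 and 1.02), which fell to 0.93 and 0.95 or more when 1 library was left out.

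Proliferation genes differed mostly by less than 2-fold, with more negative than positive values. Values were negative for 20 S phase genes and positive for 9, and negative for 24 G2 and M phase genes and positive for 5. Without a minimum fold change, 27 and 23 genes of these lists passed the adjusted p, against 80.6% of all genes tested. Of 29 S phase genes 5 were higher in HCC-70 (17.2%) and none was called in BxPC-3 (median -0.33). Of 29 G2 and M phase genes 4 were higher in HCC-70 (13.8%) and none was called in BxPC-3 (median -0.54). Over all genes tested 21.5% were higher in HCC-70, so the calls of both lists lay under the background. RRM2, the regulatory subunit of ribonucleotide reductase, had 285, 286 and 314 CPM against 99.2 ± 6.75 CPM (SD, n = 3, log2 fold change -1.57), and CENPF, a kinetochore protein, 404, 361 and 355 against 109, 131 and 147 CPM (-1.53).

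The redox list of glutathione and NRF2 genes had 38 tested members, 14 higher in BxPC-3 and 5 in HCC-70. Beside GPX2 and ALDH3A1, the cystine transporter SLC7A11 had 192, 213 and 232 CPM in BxPC-3 against 46.2, 42.8 and 40.9 CPM (2.30), and AKR1B10 163 to 188 against 11.1 to 14.7 CPM (3.75). Heme oxygenase HMOX1 was higher in HCC-70 with 27.3, 29.7 and 25.4 against 2.76, 2.78 and 1.87 CPM (-3.48). The aldehyde dehydrogenases were exchanged, with ALDH1A1 at 190 to 240 CPM in HCC-70 and 23.1 to 24.9 in BxPC-3 (-3.21), and ALDH1A3 at 89.0 to 93.6 and 570 to 601 CPM (2.70).

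Of the 13 genes that the study selected as responding to Ocoxin in all its cell lines, 7 were higher in untreated HCC-70, none was called in untreated BxPC-3, and the median was -1.04. The study chose this list on samples that include these libraries, so it is not independent evidence of a direction. ADM2, an adrenomedullin peptide, had 82.6, 85.8 and 77.0 CPM in HCC-70 against 2.57, 1.75 and 1.69 CPM (-5.35), the pseudokinase TRIB3 172, 175 and 164 against 35.0, 33.2 and 30.3 CPM (-2.37), and CHAC1, which degrades glutathione, 37.2 to 42.9 against 8.58 to 11.3 CPM (-1.97). NQO1 had 449 to 457 against 289 to 302 CPM and was not called.

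For drug handling, 5 of 16 genes for gemcitabine were higher in BxPC-3 (31.25%) and 2 in HCC-70 (12.5%). Over all genes tested these shares were 22.1% and 21.5%, so the counts of so short a list lie near the background. NT5E, the ecto-nucleotidase CD73, had 415, 439 and 444 CPM in BxPC-3 against 2.16, 1.98 and 3.43 CPM (7.43), SAMHD1 differed by 2.07 and the transporter SLC29A1 by 1.22, while SLC28A1 was off in BxPC-3. Of 26 surface proteins used as drug targets, 10 were higher in HCC-70 (38.5%) and 6 in BxPC-3 (23.1%), against the same background. SLC34A2, a phosphate transporter, had 196, 181 and 140 CPM in HCC-70 against 0.0628, 0.194 and 0 CPM (-10.95), and NECTIN4 differed by -2.06. Tissue factor (F3) had 885, 939 and 932 CPM in BxPC-3 against 25.3, 25.7 and 29.6 CPM (5.10), MET differed by 1.74, and CDH6 was off in HCC-70.

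Of 71 cancer-testis genes listed, which are normally restricted to germ cells, 54 were too low to test. A gene silent in 1 line passes the filter only through the other line, which favours calls among the members tested. Of the 17 tested, 14 were called, against 43.7% of all genes tested. Of the 14 called, 11 were higher in BxPC-3 and 3 in HCC-70. The median of those tested was 3.55 when genes off in 1 line were set at their bound and 5.20 as fitted. MAGEA1 had 73.8, 73.9 and 69.2 CPM in BxPC-3 against 0.1004, 0.1015 and 0 CPM (9.98), whereas MAGEA4 and PRAME were on in HCC-70 alone (7.10 to 8.47 and 13.4 to 14.9 CPM). MAGEA3 and MAGEA6 are near-identical, so their single values are uncertain. Of 26 S100 and SERPINB genes 9 were higher in BxPC-3 and 1 in HCC-70, and SERPINB13, a serpin of keratinocytes, was off in HCC-70 at 64.0 to 69.6 CPM in BxPC-3. Of 6 metallothioneins 2 were higher in BxPC-3 and 3 in HCC-70, with MT1G (-3.83) and MT1E (1.73) as examples of each direction.

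Markers of cell types other than carcinoma were checked in the same way. The defining leukocyte marker PTPRC stayed at or under 0.0906 CPM and MS4A1 had no count. For fibroblasts, COL1A2 stayed at or under 0.194 CPM and THY1 at or under 0.0507 CPM. Of 5 fibroblast markers tested 3 were higher in BxPC-3 and 1 in HCC-70, of 6 leukocyte markers 4 and 2, of 4 endothelial markers 4 and 0, and of 2 neuroendocrine and acinar markers 0 and 2. The endothelial cadherin CDH5 was the most abundant of those higher in BxPC-3, with 66.7, 59.8 and 62.1 against 0.653, 0.710 and 0.779 CPM (6.46), while the endothelial receptor KDR had no count in BxPC-3. CD14, a monocyte receptor, had 130, 133 and 127 CPM in HCC-70 against 4.27, 4.40 and 3.32 CPM (-5.02), while CD68 stayed at or under 0.211 CPM. The summed level of the tested leukocyte markers was 8.12 to 11.01 CPM in BxPC-3 and 128 to 134 in HCC-70, and that of the endothelial markers 70.4 to 78.3 and 1.76 to 2.36. Tested fibroblast markers summed to 26.28 to 28.75 CPM in BxPC-3 and 23.35 to 27.8 CPM in HCC-70, so that some of them were expressed in each line. The insulin gene INS, the acinar CPA1 and the neuroendocrine CHGA had no count in any library.

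**Figure D5:**
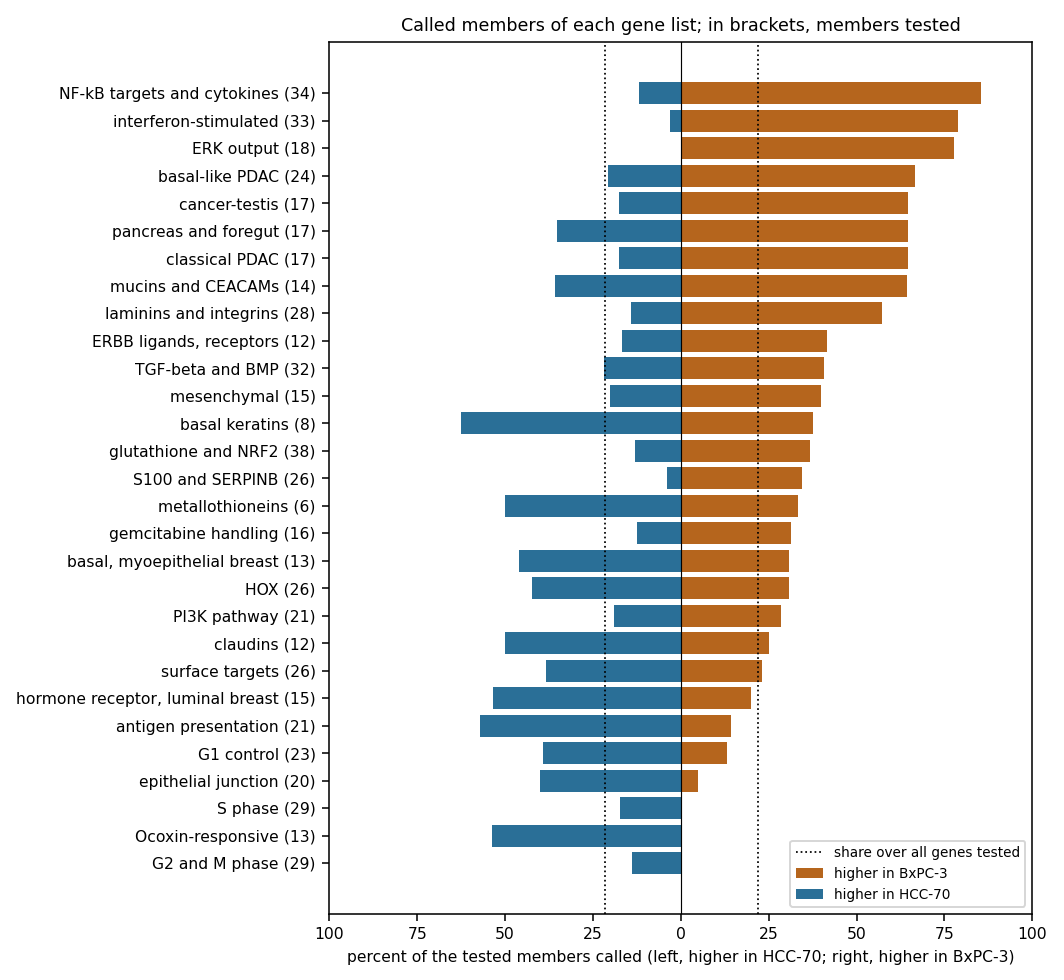
Percent of the tested members of each gene list that were called higher in BxPC-3 (bars to the right) or in HCC-70 (bars to the left), with dotted lines at the shares over all genes tested, 22.1% and 21.5%. Among the lists drawn, NF-kB targets, interferon-stimulated genes and ERK output reach farthest to the right, and basal keratins farthest to the left. The bars of antigen presentation rest in part on the uncertain stretch of chromosome 6.

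The balance between the lines also changed along the genome. Over all protein-coding genes tested, 21.5% were higher in BxPC-3 and 19.5% in HCC-70, with a median log2 fold change of 0.03. The median was lowest on chromosome 22 (-0.64), where 34.3% of 329 genes were higher in HCC-70 and 10.3% in BxPC-3, followed by chromosomes 1 (-0.45) and 16 (-0.45). It was highest on chromosome 20 (0.67), where 34.7% of 378 genes were higher in BxPC-3 and 9.26% in HCC-70. On chromosome 8, 40.3% of 476 genes were higher in BxPC-3 (median 0.39). Genes on 1 chromosome are not independent, and this description was not tested.

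The same contrast in the Ocoxin-treated libraries of the lines, which are separate samples, called 8101 of 18483 genes (43.8%). Of the 8018 genes called between untreated lines, 7046 (87.9%) were called in the same direction between treated lines, which is 87.0% of the calls of the latter, and 3 were called in opposite directions. DUSP6, COL17A1 and IGFBP3 differed by 7.58, 12.12 and -12.20 between treated lines on the log2 scale.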

How the data were processed

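The authors deposited 1 table of read counts per gene, in which whole-number counts stand beside a gene length, and these counts were used as deposited. Per the study's methods, reads were trimmed with fastp, aligned to hg38 with STAR, freed of duplicates with Picard and counted with featureCounts. The paper's methods give neither the featureCounts version (2.0.3) nor its strand setting. Counting was without strand, although the kit was stranded. Antisense partners therefore cannot be told apart, and near-identical paralogs can share reads. The submitters' notes also name DESeq2. Of 58051 identifiers, 56948 were paired with a symbol through the GENCODE annotation, and none of 37 mitochondrial genes had a count. The deposited gene lengths (another unit, in bases) entered only a check of length.

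Control libraries were grouped by title. Genes were filtered with filterByExpr, scaled by TMM and tested with edgeR (version 4.0.16, limma 3.58.1, R 4.3.3) by the robust quasi-likelihood test, and p-values were adjusted over the whole table by the method of Benjamini and Hochberg. The common biological coefficient of variation was 6.77%. An exact permutation test of 3 against 3 libraries cannot give a p under 0.1, so none was used. DESeq2 (version 1.42.0) was an alternative. The fit was tested on simulated data.

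The genes named were the 10 most abundant protein-coding genes on in one line and off in the other, the 10 with the largest difference among genes with more than 3 counts in all 6 libraries and at least 10 CPM in the higher line, members of gene lists chosen by role or level, and neighbours of listed genes. The members and lists were chosen with earlier results of these data known. Depth was 31999019 to 39009959 counts per library. Alternatives changed the test, scaling, filter, threshold, depth, counting unit, length trend, libraries and replicate block. Some genes that met these rules are not reported here.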

Additional observations from a re-analysis of the deposited data

Results flagged for a closer look

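For 3 of the genes with the largest differences, the difference between the lines was not the same in untreated and in Ocoxin-treated libraries, by an interaction term in an edgeR fit over both. IL1RL1, the receptor of interleukin 33, differed by 9.50 on the log2 scale between untreated lines and by 12.19 between treated lines, and the untreated minus treated difference was -2.68 (adjusted p = 0.0362). DOCK8, an exchange factor, differed by -9.31 and -11.01, a change of 1.71 (adjusted p = 0.0295). MGP, matrix Gla protein, differed by -9.11 and -8.39, a change of -0.72 (adjusted p = 0.0397). In each of the 3 genes the line with the lower level had under 1 CPM in every control library. How far low counts set the size of the change was not tested. The dilution of Ocoxin differed between the lines, and its part in these values was not tested. Over all genes in that fit, 958 of 19444 (4.93%) had an adjusted p under 0.05 for the same term.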

How the results depend on the processing

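The 8018 calls changed by over 1.5 times under 3 alternatives. With at least 10 counts in every library, a filter that removes genes off in 1 line, 4794 genes were called, 2329 higher in BxPC-3 and 2465 in HCC-70. With no minimum fold change these counts were 14803, 7496 and 7307, and with a minimum of 4 they were 4439, 2449 and 1990. DESeq2 called 7915 genes, 7897 of them shared, and testing against the 2-fold limit itself left 6628. With all counts halved, 7082 of 16751 genes tested were called, 7066 of them shared. Leaving out 1 library gave 8246 to 8311 calls, 4203 to 4296 higher in BxPC-3 and 3991 to 4107 in HCC-70.

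The replicate numbers are shared by the lines, and the counts gave no sign of pairing by number. Whether same-numbered libraries were handled together is not stated in the labels. Same-numbered libraries deviated from their group means with r = -0.05, 0.01 and 0.03, other pairs with r from -0.06 to 0.05, and not every library correlated best with its own number. With the replicate block 7980 genes were called, 4051 and 3929 in each direction, 7960 of them shared, and IFI6 was no longer called (adjusted p = 0.0684, edgeR).

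Changes of sign among the genes named were limited to genes that were not called. In treated libraries EGFR was at -0.074 and CDH3 at 0.12. CDH3 was at 0.014 with upper quartile scaling, and from -0.061 to 0.041 when 1 library was left out. SMAD7 was at -0.010 with total counts only and from -0.0059 to 0.14 when 1 library was left out. CDK6, RB1, KRT5, NLRC5 and E2F1, all near the limit, lost the call when tested against a 2-fold change. Depth limits genes near 3 counts per library, RNA counts cannot tell lost DNA from silent DNA, and each cancer type is represented by 1 line.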
